A study of Mus musculus with 12 samples.

Results

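The neural POU domain factors are transcription factors of classes II, III, IV and VI of the POU family, and 8 of their genes were considered: Pou3f1, Pou3f2, Pou3f3, Pou3f4, Pou4f1, Pou4f2, Pou2f1 and Pou6f1. A probe set was taken for a gene where that gene was the only symbol the platform annotation gave it. This gave 13 probe sets of 6 genes, among 45037 probe sets that are not controls and 18193 genes with such a probe set. Pou2f1 and Pou4f2 had no such probe set in the annotation used and were not analysed here. Of the 13 probe sets, 12 were bright enough to be tested, and they covered all 6 genes.

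RNA of mouse embryonic stem cells undergoing neuronal differentiation was hybridised to 12 Affymetrix arrays, 1 sample to an array. The 4 groups were CAG150 cells at day 6, CAG150 cells at day 4, HM1 cells at day 6 and HM1 cells at day 4, with 3 arrays each. HM1 is a line from a male mouse in which the Hprt gene does not work. CAG150 cells carry expanded CAG repeats, placed in the Huntington's disease gene Htt as far as the study is known. There was 1 line of each kind, so any difference between the lines could be one of the clone as well as of the repeat, which cannot be told apart. The labels name nervous system as the source and do not say whether the arrays of a group came from separate cultures, so the p-values measure the spread between these samples, which may be technical.

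A POU domain joins a POU-specific domain to a POU homeodomain, and together they read the octamer element and related AT-rich DNA. Class III factors mark early neural tissue. Pou3f1 (Oct6) is also made in the epiblast and in Schwann cells, Pou3f2 (Brn2) promotes neuronal fate, Pou3f3 (Brn1) acts with Pou3f2 in cortical progenitors, and Pou3f4 (Brn4) is an X-linked gene of the neural tube and inner ear. Pou4f1 (Brn3a) belongs to class IV and guides the differentiation of sensory neurons, and Pou6f1 is a class VI factor expressed in the nervous system.

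Median intensities ranged from 19.2 to 25.9 between the arrays, and each array correlated with the others of its group at a mean r of 0.9904 to 0.9921. All 7 markers of postmitotic neurons were bright enough to be tested. Their summed intensity was 8852 to 9766 in CAG150 cells at day 6 and 1698 to 1911 in CAG150 cells at day 4. It was 5823 to 6936 in HM1 cells at day 6 and 2860.1 to 3169 in HM1 cells at day 4. The 5 markers of neural progenitors summed to 11325 to 11743, 5404 to 5696, 9638 to 9936 and 3383 to 4163 in the same order of groups. Fabp7 weighed most in the day 6 sums, at a mean of 6688 in CAG150 cells and 5413 in HM1 cells. RNA of a cell mixture was measured, so more cells of a type and more RNA per cell cannot be told apart in any value given here.

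The sequence just before the annotated start is printed for the class III members that rose with time. Pou4f1 and Pou6f1 rose as well, and their windows, described below, held no CCAAT. The windows are the 250 bases before the start that the RefSeq promoter table (build GRCm38.p6) takes for a gene, on the gene's own strand and written 5′ to 3′. Capitals mark matches to CCAAT (either strand).
Pou3f2 (chr4:22488367-22488616, minus strand): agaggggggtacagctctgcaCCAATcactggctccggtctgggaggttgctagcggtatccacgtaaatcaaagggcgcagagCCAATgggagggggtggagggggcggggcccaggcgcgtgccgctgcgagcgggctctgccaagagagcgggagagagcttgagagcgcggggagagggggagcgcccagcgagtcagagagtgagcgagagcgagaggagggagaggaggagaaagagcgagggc
Pou3f3 (chr1:42695518-42695767, plus strand): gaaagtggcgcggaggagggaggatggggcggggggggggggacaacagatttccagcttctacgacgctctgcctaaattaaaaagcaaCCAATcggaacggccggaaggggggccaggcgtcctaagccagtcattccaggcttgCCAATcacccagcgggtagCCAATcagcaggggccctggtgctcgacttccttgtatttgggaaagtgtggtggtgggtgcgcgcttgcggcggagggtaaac
Pou3f4 (chrX:110814129-110814378, plus strand): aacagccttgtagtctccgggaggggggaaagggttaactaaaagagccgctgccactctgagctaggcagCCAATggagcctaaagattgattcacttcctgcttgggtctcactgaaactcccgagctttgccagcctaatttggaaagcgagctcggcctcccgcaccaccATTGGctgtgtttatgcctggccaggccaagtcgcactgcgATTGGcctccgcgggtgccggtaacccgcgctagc

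The 3 class III windows each held CCAAT letters more than once. Pou3f2 had 2 matches, beginning 229 and 166 bases before the start. Pou3f3 had 3 matches, beginning 160, 103 and 84 bases before it. Pou3f4 had 3 matches, 1 as CCAAT at 179 bases and 2 as ATTGG, its other strand, at 76 and 35 bases. Of 32817 promoter windows of this length, 33.8% held at least 1 match, 10.1% at least 2 and 2.79% at least 3. The windows of Pou4f1 and Pou6f1 are not printed, since the start the table takes lies inside the annotated span of the gene, so that 119 and 77 bases of these windows fall within the span. Pou4f1 had no CCAAT and 1 E-box CAGCTG, which lay in the stretch within the gene's span, and 13.0% of all windows held that E-box. The Pou4f1 window was also the richest in CpG of the 5 member windows read, with 47 CpG and 78.0% G and C, against a median of 6 CpG and 52.4% over all windows. The Pou6f1 window had 20 CpG, 68.0% G and C and no match. The octamer ATGCAAAT, which 1.6% of all windows held on either strand, was in none of the 5 windows, nor were AACAAT (9.42% of windows) and TATAAA (12.4%). A match is a run of letters and not a shown binding site, and a missing match holds for this window alone. No promoter window was used for Pou3f1.

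Between the lines, 4 of the 6 genes were higher in CAG150 cells than in HM1 cells at each day, 1 was lower and 1 did not pass the test. Pou3f1 was the gene that was lower, at both days. Pou3f3, Pou3f4 and Pou4f1 were higher at both days, Pou6f1 was higher at day 6 and Pou3f2 at day 4. At day 6, 10.1% of all 12280 genes tested passed as higher and 11.2% as lower, so that 21.4% passed in either direction. At day 4 the shares were 7.87% higher, 7.92% lower and 15.8% in either direction. The median log2 difference of the 6 genes was 0.51 at day 6 and 0.54 at day 4, against 0.0 and 0.01 over all genes tested. The calls are those of limma at a Benjamini-Hochberg adjusted p under 0.05 over all genes, on the scale log2(intensity + 16), using the brightest probe set of a gene. Folds were taken from that scale and understate changes of dim probe sets. With a pseudocount of 64 the line difference was 0.34 for Pou4f1 at day 4 and 0.38 for Pou6f1 at day 6, and the day difference in HM1 cells was 0.34 for Pou3f4, 0.51 for Pou4f1, 0.35 for Pou6f1 and 1.29 for Pou3f2. In CAG150 cells the day difference was then 1.22 for Pou3f4, 0.78 for Pou6f1 and 1.04 for Pou3f2. All of these passed, and the line difference of Pou3f4 at day 4 (0.20, adjusted p = 0.12) did not.

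**Figure D1:**
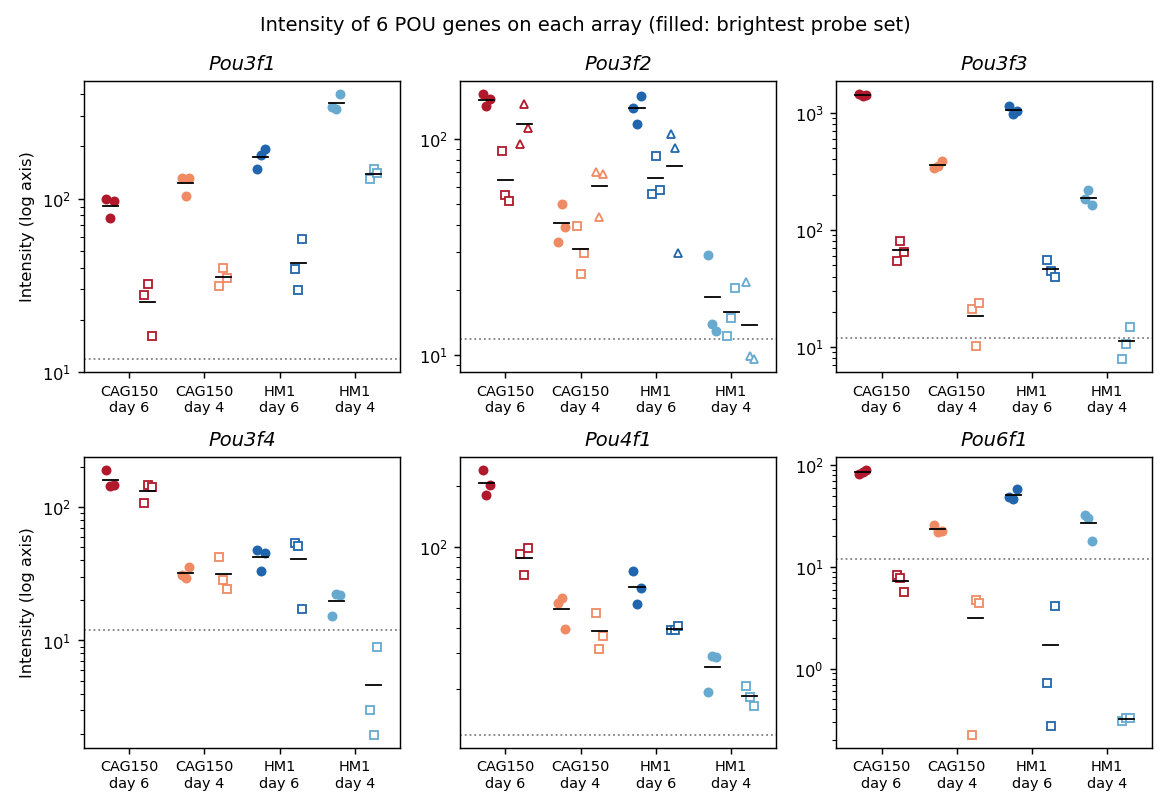
Intensity of each POU probe set on every array (log axis), with the 4 groups side by side, filled points for the brightest probe set of a gene, open points for its others, bars for the means of 3 arrays and a dotted line for the intensity limit of 11.9. By the brightest probe sets, Pou3f1 was lowest in CAG150 cells at day 6 (77.5 to 99.7) and highest in HM1 cells at day 4 (328 to 399.8), while the other 5 genes were highest in CAG150 cells at day 6, where Pou3f2 overlapped with HM1 cells at day 6.

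The array ranges of the lines did not overlap for 4 genes that were higher and 1 that was lower at day 6, where 18.8% and 19.8% of all genes tested, 38.6% in all, had such ranges. The counts were the same at day 4, where the shares were 17.3%, 17.1% and 34.4%. Over the 12 probe sets tested one by one, 6 were higher, 1 was lower and 5 did not pass at day 6, with 7.83% and 6.7% of 27022 probe sets passing in these directions, 14.5% in all. At day 4, 6 were higher, 2 were lower and 4 did not pass, with 5.67% and 4.56% of probe sets passing, 10.2% in all.

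Other markers moved between the lines beside these genes. Of the 7 neuron markers, 6 were higher and 0 lower in CAG150 cells at day 6, and 4 were higher and 1 lower at day 4, with median log2 differences of 0.58 and 0.48. Of these 7, Tubb3 lies on chromosome 8 and Mapt and Rbfox3 on chromosome 11, whose genes as a whole were higher in CAG150 cells. The Rbfox3 call at day 6 was lost under 5 other settings (0.63 to 0.77, adjusted p 0.055 to 0.077) and without any of 4 day 6 arrays, CAG150 replicates 1 and 3 and HM1 replicates 2 and 3 (0.59 to 0.67, adjusted p 0.086 to 0.12). The Mapt call at day 4 was lost with averaged probe sets (0.17, adjusted p = 0.29), with a pseudocount of 64 (0.25, adjusted p = 0.068) and without CAG150 day 4 replicate 2 (0.47, adjusted p = 0.054). The marker that was lower at day 4 was Stmn2, a microtubule regulator of growing axons. It averaged 607 ± 56.8 in CAG150 cells and 2108 ± 101 in HM1 cells at day 4 (SD, n = 3 each). The summed intensity of the list at day 4, which takes in Stmn2, was lower in CAG150 cells. Every other marker of the list had a higher mean in CAG150 cells at that day. Of the 8 smooth muscle and fibroblast markers, 6 were lower at day 6 and 5 at day 4 and 0 were higher, and their sum was 369 to 391 in CAG150 cells and 5438 to 6631 in HM1 cells at day 6, and 621 to 715 in CAG150 cells and 4046 to 4662 in HM1 cells at day 4. Among the 5 progenitor markers, 0 were higher and 1, Pax6, was lower at day 6. At day 4, 2 of them were higher and 0 lower. Of the 6 pluripotent markers, 5 were lower at each day and 0 were higher. Of 8 endoderm markers 6 were tested, of which 4 were lower at day 6 and 3 at day 4, with sums of 233 to 248 in CAG150 cells and 661 to 702 in HM1 cells at day 6, and 329 to 382 in CAG150 cells and 813 to 836 in HM1 cells at day 4. Of 5 glia markers 2 were tested and 0 passed between the lines. No marker of these lists was at 0 in a group. The part of these cells in the differences of the POU genes was not tested.

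Among the 6 measured members, Pou3f1 was the only one that passed as lower in CAG150 cells and that fell with time. Pou5f1, a POU gene outside these 6, was also lower in CAG150 cells, as given below. Its brighter probe set, 1460038_at, read 99.7, 77.5 and 96.3 in CAG150 cells at day 6 and 132, 104 and 132 in CAG150 cells at day 4. It read 148, 178 and 194 in HM1 cells at day 6, and 336, 328 and 399.8 in HM1 cells at day 4. No group overlapped another, and every HM1 array lay above every CAG150 array. Pou3f1 was 1.77-fold lower in CAG150 cells at day 6 (log2 difference -0.82 ± 0.13 SE, adjusted p = 0.00069) and 2.68-fold lower at day 4 (-1.42 ± 0.13, adjusted p = 1.2e-05, limma).

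Between the days Pou3f1 fell by 0.37 on the log2 scale in CAG150 cells (SE 0.13, adjusted p = 0.033, limma), which is 1.29-fold. It fell by 0.97 in HM1 cells (SE 0.13, adjusted p = 7.9e-05), or 1.96-fold. The CAG150 fall was lost with no filter on dim genes (adjusted p = 0.056) and without CAG150 day 4 replicate 1 (-0.32, adjusted p = 0.11), CAG150 day 4 replicate 3 (-0.32, adjusted p = 0.10) or CAG150 day 6 replicate 2 (-0.28, adjusted p = 0.13). The 2 day differences differed by 0.60 ± 0.18 (95% interval 0.21 to 0.99), which did not pass over all genes (limma adjusted p = 0.10). That difference passed with a pseudocount of 64 (0.55, adjusted p = 0.02) and with the mean of both probe sets (0.85, adjusted p = 0.0085).

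The dimmer Pou3f1 probe set, 1422068_at, averaged 25.4 ± 8.33 in CAG150 cells at day 6 and 35.2 ± 4.32 in CAG150 cells at day 4, with 42.7 ± 14.8 in HM1 cells at day 6 and 139 ± 9.72 in HM1 cells at day 4 (SD, n = 3 each). Like the brighter one it was highest in HM1 cells at day 4. It was lower in CAG150 cells at day 4 (-1.60, adjusted p = 0.00015, limma over probe sets), while at day 6 its arrays overlapped and the difference of -0.50 had an adjusted p of 0.088. It passed without HM1 day 6 replicate 2 (-0.66, adjusted p = 0.039). Between the days it fell in HM1 cells (-1.43, adjusted p = 0.0001). In CAG150 cells its days overlapped and the difference did not pass (-0.33, adjusted p = 0.19). The brighter probe set did not pass there in the same fit either (-0.37, adjusted p = 0.05). For 1422068_at the day changes differed by 1.11 between the lines (adjusted p = 0.055). That passed without CAG150 day 6 replicate 3 (1.28, adjusted p = 0.029) or HM1 day 6 replicate 3 (1.3, adjusted p = 0.019).

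Genes of the pluripotent state were measured beside Pou3f1, since it is a gene of the epiblast. Pou5f1 (Oct4), the class V POU factor that keeps stem cells pluripotent, averaged 106 ± 29.4 in CAG150 cells at day 6, 105 ± 21.0 in CAG150 cells at day 4, 308 ± 10.4 in HM1 cells at day 6 and 341 ± 124 in HM1 cells at day 4 (SD, n = 3 each). It was lower in CAG150 cells at day 6 (-1.43 ± 0.23, 2.7-fold, adjusted p = 0.00079) and at day 4 (-1.52 ± 0.23, 2.86-fold, adjusted p = 0.00072, limma). Between the days its differences of 0.0 in CAG150 cells and -0.08 in HM1 cells did not pass. The 6 pluripotent markers summed to 862 to 945 in CAG150 cells at day 6, 467 to 531 in CAG150 cells at day 4, 2082 to 2393 in HM1 cells at day 6 and 1454 to 1628 in HM1 cells at day 4. Between the days 3 of the 6 rose and 1 fell in CAG150 cells, and 2 rose and 1 fell in HM1 cells. Dppa5a averaged 175 at day 4 and 511 at day 6 in CAG150 cells, and 651 and 1352 in HM1 cells. Nanog averaged 123 at day 4 and 83.6 at day 6 in CAG150 cells, and 233 and 159.9 in HM1 cells. The part of cells left in that state in the Pou3f1 values was not tested.

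In Schwann cells Pou3f1 acts before Egr2 (Krox20), a factor of myelination that is also made in the hindbrain. Of 7 genes listed for that lineage, 5 had a named probe set and 4 were tested. Egr2 averaged 10.1 ± 4.75 in CAG150 cells at day 6, 15.3 ± 6.3 in CAG150 cells at day 4, 82.8 ± 29.4 in HM1 cells at day 6 and 181 ± 35.4 in HM1 cells at day 4. It was lower in CAG150 cells at day 6 (-1.89 ± 0.23, adjusted p = 9.6e-05) and at day 4 (-2.66 ± 0.23, adjusted p = 9.2e-06), and lower at day 6 than at day 4 in HM1 cells (-1.03 ± 0.23, adjusted p = 0.0038, limma). The HM1 day difference was lost with a pseudocount of 1 (-1.17, adjusted p = 0.053). In the other tested genes of this list, Mbp, which codes for a myelin protein, was higher in CAG150 cells at day 6 (0.40 ± 0.11, adjusted p = 0.023), a call lost without CAG150 day 6 replicate 3 (0.32, adjusted p = 0.096) or HM1 day 6 replicate 2 (0.29, adjusted p = 0.09). The Mbp call was also lost with arrays centred on their medians (0.34, adjusted p = 0.077) and with averaged probe sets (0.24, adjusted p = 0.055). A fit of the day 6 groups alone lost it too (0.40, adjusted p = 0.06). Besides Egr2, none of the tested genes of this list passed between the lines at day 4.

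Pou3f2 rose between the days in both lines and was higher in CAG150 cells at day 4. Its brightest probe set, 1453478_at, read 160.4, 142 and 152 in CAG150 cells at day 6 and 33.3, 49.7 and 38.9 in CAG150 cells at day 4. In HM1 cells it read 139, 117 and 158 at day 6 and 29.1, 13.9 and 12.9 at day 4. The lines overlapped at day 6, and at day 4 every CAG150 array lay above every HM1 array, of which replicate 1 was the highest. The difference between the lines was 0.13 ± 0.17 at day 6 (95% interval -0.23 to 0.49, adjusted p = 0.64) and 0.73 ± 0.17 at day 4 (1.66-fold, adjusted p = 0.011, limma).

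Day 6 exceeded day 4 for Pou3f2 by 1.57 ± 0.17 in CAG150 cells (2.97-fold, adjusted p = 9.5e-06) and by 2.18 ± 0.17 in HM1 cells (4.52-fold, adjusted p = 7.9e-07, limma). The difference between these changes, -0.60 ± 0.23 (95% interval -1.11 to -0.10), had an adjusted p of 0.21. It passed without HM1 day 4 replicate 1 (-0.81, adjusted p = 0.04). Because HM1 cells were dim at day 4, the line difference there was 1.16 with a pseudocount of 1 and 0.34 with 64, and it passed with both.

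The other 2 Pou3f2 probe sets moved the same way between the days. Probe set 1450831_at read 94.2, 145 and 112 in CAG150 cells at day 6, 69.8, 43.6 and 68.8 in CAG150 cells at day 4, 105, 90.5 and 29.8 in HM1 cells at day 6, and 21.7, 9.95 and 9.62 in HM1 cells at day 4. HM1 replicate 3 at day 6 was well below the other arrays of its group. Its line difference did not pass at day 6 (0.64, adjusted p = 0.20) and passed at day 4 (1.37, adjusted p = 0.016), and its day difference did not pass in CAG150 cells (0.79, adjusted p = 0.07) and passed in HM1 cells (1.52, adjusted p = 0.0033, limma over probe sets). The day 4 call was lost without CAG150 day 4 replicate 1 or 3 or HM1 day 4 replicate 2 or 3 (1.27 to 1.29, adjusted p 0.054 to 0.062). The day difference in CAG150 cells passed without HM1 day 6 replicate 3 (0.79, adjusted p = 0.0083). Probe set 1457734_at averaged 64.7 ± 19.8 in CAG150 cells at day 6, 30.9 ± 8.13 in CAG150 cells at day 4, 65.5 ± 15.2 in HM1 cells at day 6 and 15.8 ± 4.15 in HM1 cells at day 4. It passed between the days in CAG150 cells (0.77, adjusted p = 0.0074) and in HM1 cells (1.35, adjusted p = 0.00023) and did not pass between the lines (0.55, adjusted p = 0.086 at day 4).

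Pou3f3 rose with time in both lines and was higher in CAG150 cells at both days. Its brighter probe set, 1435197_at, read 1438, 1384 and 1429 in CAG150 cells at day 6 and 335, 354 and 390.1 in CAG150 cells at day 4. It read 1142, 984 and 1044 in HM1 cells at day 6, and 183, 219 and 162 in HM1 cells at day 4. The 4 groups did not overlap, and the days lay further apart than the lines. Day 6 exceeded day 4 by 1.93 ± 0.11 in CAG150 cells (3.82-fold, adjusted p = 3.3e-08) and by 2.40 ± 0.11 in HM1 cells (5.28-fold, adjusted p = 7.3e-09, limma).

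CAG150 cells exceeded HM1 cells in Pou3f3 by 0.42 ± 0.11 at day 6 (1.34-fold, adjusted p = 0.014) and by 0.89 ± 0.11 at day 4 (1.85-fold, adjusted p = 0.00012, limma). The day 6 difference was lost with each array centred on its median (0.36, adjusted p = 0.05) and without HM1 day 6 replicate 2 (0.37, adjusted p = 0.053). The day differences of the lines differed by -0.47 ± 0.15 (95% interval -0.79 to -0.14, adjusted p = 0.13), which passed without HM1 day 4 replicate 2 (-0.57, adjusted p = 0.045). The dimmer probe set, 1422331_at, averaged 66.8 ± 13.6 in CAG150 cells at day 6, 18.3 ± 7.06 in CAG150 cells at day 4, 46.6 ± 8.19 in HM1 cells at day 6 and 11.2 ± 3.52 in HM1 cells at day 4. It rose with time in CAG150 cells (1.28, adjusted p = 0.00013) and HM1 cells (1.20, adjusted p = 0.00029), and its line differences of 0.40 at day 6 and 0.32 at day 4 did not pass (adjusted p = 0.15 and 0.27). A further probe set annotated to Pou3f3 and another gene was left out.

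Pou3f4 had the largest difference between the lines at day 6 among the 6 genes. Its brighter probe set, 1422165_at, read 190.4, 144 and 146 in CAG150 cells at day 6 and 31.2, 29.5 and 35.6 in CAG150 cells at day 4. It read 48.1, 33.5 and 45.5 in HM1 cells at day 6, and 15.3, 22.2 and 21.8 in HM1 cells at day 4. The CAG150 arrays at day 6 stood far above all others, and HM1 cells at day 6 overlapped with CAG150 cells at day 4. Pou3f4 was 3.01-fold higher in CAG150 cells at day 6 (1.59 ± 0.13, adjusted p = 3.5e-06) and 1.35-fold higher at day 4 (0.43 ± 0.13, adjusted p = 0.041, limma).

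The day 4 call on Pou3f4 was lost under 6 of 10 other settings and without any single one of the 6 day 4 arrays, with differences of 0.34 to 0.48 when an array was left out and an adjusted p of up to 0.14. Between the days Pou3f4 rose by 1.86 ± 0.13 in CAG150 cells (3.64-fold, adjusted p = 2.8e-07) and by 0.70 ± 0.13 in HM1 cells (1.63-fold, adjusted p = 0.001, limma). The rise was larger in CAG150 cells by 1.16 ± 0.18 (95% interval 0.76 to 1.56, adjusted p = 0.0042). That difference kept its call without any single array (adjusted p 0.0048 to 0.014) and lost it with the mean of both probe sets (0.70, adjusted p = 0.055).

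The dimmer Pou3f4 probe set, 1422164_at, read 107, 146 and 142 in CAG150 cells at day 6, 42.4, 28.2 and 24.2 in CAG150 cells at day 4, 53.7, 51.6 and 17.2 in HM1 cells at day 6, and 3.01, 1.97 and 8.86 in HM1 cells at day 4. HM1 replicate 3 at day 6 was again the lowest of its group, as it was for 1 Pou3f2 probe set. This probe set passed between the lines at day 6 (1.45, adjusted p = 0.0029) and at day 4 (1.20, adjusted p = 0.012), and between the days in CAG150 cells (1.64, adjusted p = 0.00038) and in HM1 cells (1.40, adjusted p = 0.0016, limma over probe sets). The day 4 call was lost without CAG150 day 4 replicate 1 (1.05, adjusted p = 0.052). The rises differed by 0.24 between the lines, with an adjusted p of 0.85, and by 1.16 (adjusted p = 0.0095) for the brighter probe set in the same fit. A difference between the probe sets was not tested.

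**Figure D2:**
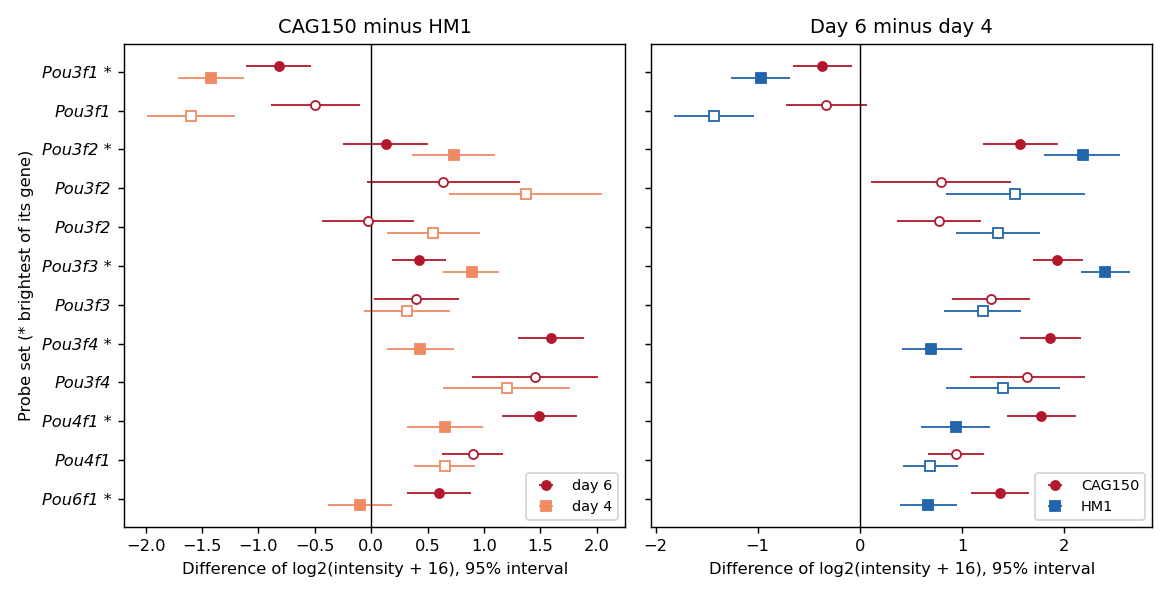
Differences of log2(intensity + 16) for each POU probe set tested, CAG150 minus HM1 cells (left) and day 6 minus day 4 (right), with 95% intervals from limma and a star and filled point for the brightest probe set of a gene. Both Pou3f1 probe sets lie below 0 in every comparison, and both probe sets of Pou3f4 and of Pou4f1 lie above it.

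Pou4f1, the class IV factor of sensory neurons, followed nearly the same pattern as Pou3f4. Its brighter probe set, 1429668_at, read 241, 182 and 202 in CAG150 cells at day 6 and 53.3, 55.9 and 39.7 in CAG150 cells at day 4. It read 76.6, 52.2 and 63.2 in HM1 cells at day 6, and 19.4, 29.1 and 28.6 in HM1 cells at day 4. The lines did not overlap at either day, while HM1 cells at day 6 overlapped with CAG150 cells at day 4. Pou4f1 was 2.81-fold higher in CAG150 cells at day 6 (1.49 ± 0.15, adjusted p = 1.7e-05) and 1.57-fold higher at day 4 (0.65 ± 0.15, adjusted p = 0.01, limma).

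Between the days Pou4f1 rose by 1.77 ± 0.15 in CAG150 cells (3.42-fold, adjusted p = 1.2e-06) and by 0.94 ± 0.15 in HM1 cells (1.92-fold, adjusted p = 0.00032, limma). The rise was larger in CAG150 cells by 0.84 ± 0.21 (95% interval 0.38 to 1.29, adjusted p = 0.047). With 1 array left out this call was kept only without HM1 day 4 replicate 1 (0.95), CAG150 day 6 replicate 2 (0.92) or HM1 day 6 replicate 1 (0.95). Without any of the other 9 arrays it was 0.72 to 0.91 and did not pass, with an adjusted p of up to 0.10.

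The dimmer Pou4f1 probe set, 1429667_at, averaged 88.4 ± 13.5 in CAG150 cells at day 6, 38.4 ± 8.09 in CAG150 cells at day 4, 39.7 ± 0.88 in HM1 cells at day 6 and 18.5 ± 2.06 in HM1 cells at day 4. It was higher in CAG150 cells at day 6 (0.90, adjusted p = 0.0005) and at day 4 (0.65, adjusted p = 0.0063), and rose with time in CAG150 cells (0.94, adjusted p = 1e-04) and in HM1 cells (0.69, adjusted p = 0.0013, limma over probe sets). Its rises differed between the lines by 0.25 (adjusted p = 0.62). In the same fit the brighter probe set gave 0.84 with an adjusted p of 0.088, so neither passed. A difference between probe sets was not tested.

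Pou6f1 rose in both lines, and it passed between the lines at day 6 and not at day 4. Its brighter probe set, 1452844_at, read 81.6, 86.2 and 90.1 in CAG150 cells at day 6 and 26.0, 21.9 and 22.8 in CAG150 cells at day 4. It read 49.1, 47.0 and 58.6 in HM1 cells at day 6, and 32.2, 30.2 and 18.2 in HM1 cells at day 4. The lines were apart at day 6 and overlapped at day 4, where HM1 replicate 3 was the lowest array. The line difference was 0.60 ± 0.12 at day 6 (1.51-fold, adjusted p = 0.0042) and -0.10 ± 0.12 at day 4 (95% interval -0.37 to 0.17, adjusted p = 0.63, limma).

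Pou6f1 rose by 1.37 ± 0.12 in CAG150 cells (2.58-fold, adjusted p = 2.3e-06) and by 0.67 ± 0.12 in HM1 cells (1.59-fold, adjusted p = 0.00097, limma). The rise was larger in CAG150 cells by 0.70 ± 0.17 (95% interval 0.32 to 1.07, adjusted p = 0.046). With 1 array left out that call was kept only without HM1 day 4 replicate 3 (0.85, adjusted p = 0.0063) or HM1 day 6 replicate 3 (0.77, adjusted p = 0.049). Without any of the other 10 arrays it was 0.61 to 0.74 with an adjusted p of up to 0.11. A second Pou6f1 probe set, 1420749_a_at, was too dim to be tested, at 8.43, 7.89 and 5.63 in CAG150 cells at day 6, 0.226, 4.73 and 4.47 in CAG150 cells at day 4, 0.723, 0.272 and 4.14 in HM1 cells at day 6, and 0.306, 0.327 and 0.329 in HM1 cells at day 4.

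By the fit over genes, 5 of the 6 genes rose between the days and Pou3f1 fell in each line. In CAG150 cells 22.5% of all genes tested passed as higher at day 6 and 21.9% as lower, or 44.4% in either direction, and in HM1 cells 20.4%, 18.5% and 38.9%. The background of changed genes was thus high. The median log2 difference of the 6 genes was 1.67 in CAG150 cells and 0.82 in HM1 cells, against 0.0 over all genes tested in each line. The array ranges of the days did not overlap for any of the 6 genes in either line, with 5 higher and 1 lower at day 6. Such ranges were seen for 55.0% of all genes in CAG150 cells (27.4% higher and 27.6% lower) and 49.1% in HM1 cells (24.8% higher and 24.3% lower). Over probe sets, 9 of 12 rose, 0 fell and 3 did not pass in CAG150 cells, where 18.7% of all probe sets rose and 14.9% fell, 33.5% in all. In HM1 cells 10 rose and 2 fell, where 16.3% of all probe sets rose and 11.5% fell, 27.8% in all.

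Most markers of neurons rose with time, with 6 of 7 higher and 0 lower at day 6 in each line. The median log2 differences were 2.32 in CAG150 cells and 1.93 in HM1 cells. The marker that did not rise was Rbfox3 in CAG150 cells, at 178 ± 27.8 at day 4 and 167 ± 31.2 at day 6. In HM1 cells it was Stmn2, at 2108 ± 101 and 2064 ± 143. Dcx, a microtubule protein of migrating neurons, averaged 1119 ± 41.3 in CAG150 cells at day 6, 78.5 ± 7.01 in CAG150 cells at day 4, 808 ± 67.8 in HM1 cells at day 6 and 40.6 ± 2.49 in HM1 cells at day 4 (SD, n = 3 each). Of the 5 progenitor markers, 4 rose and 1, Sox1, fell in each line. The part of a changing number of neurons in the rises of the POU genes was not tested.

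The rise with time differed between the lines for 3 of the 6 genes, Pou3f4, Pou4f1 and Pou6f1, each larger in CAG150 cells. Over all genes tested, 1.58% passed as higher, 2.03% as lower and 3.61% in either direction. Pou3f2 and Pou3f3 had larger rises in HM1 cells by value, and neither difference passed. A single gene passed with arrays centred on their medians, no filter, a pseudocount of 1 or a replicate block, and it was Pou3f4. Averaging the probe sets of each gene also left a single gene, which was Pou3f1. By the probe set fit, 1 of 12 passed, the brighter one of Pou3f4, where 0.659% of all probe sets passed as higher and 1.54% in either direction.

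**Figure D3:**
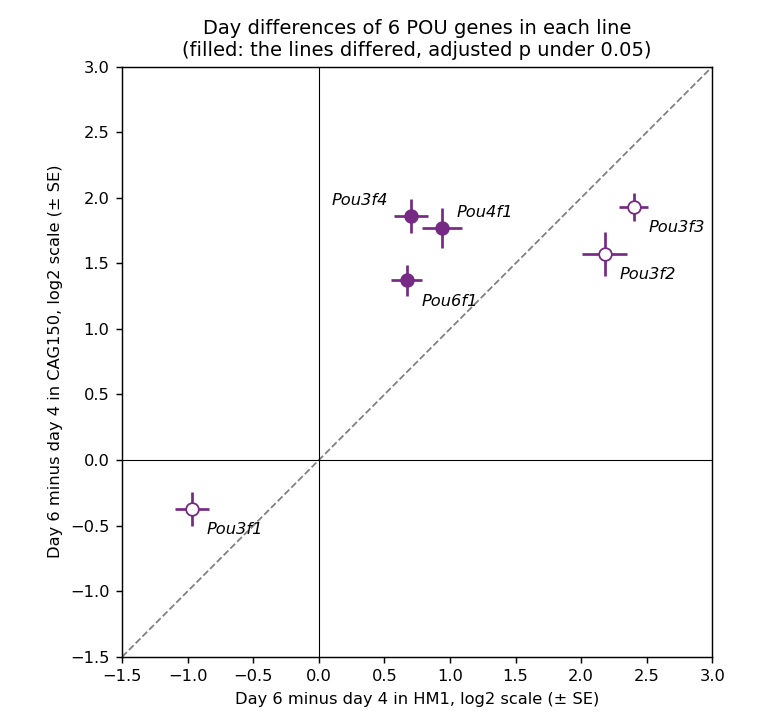
Day 6 minus day 4 on the log2 scale in CAG150 cells (vertical axis) against HM1 cells (horizontal axis) for the brightest probe set of each POU gene, with SE bars, a dashed line of equality and filled points where the lines differed at an adjusted p under 0.05. Pou3f4 (1.86 in CAG150 cells and 0.70 in HM1 cells), Pou4f1 (1.77 and 0.94) and Pou6f1 (1.37 and 0.67) lie above the line, and Pou3f2 (1.57 and 2.18) and Pou3f3 (1.93 and 2.40) below it.

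The order of the 4 groups fell into 4 kinds. Pou3f2 and Pou3f3 were ordered mainly by day, with CAG150 cells above HM1 cells within a day except where Pou3f2 overlapped at day 6. Pou3f4 and Pou4f1 had CAG150 cells at day 6 alone on top, HM1 cells at day 6 and CAG150 cells at day 4 overlapping in the middle, and HM1 cells at day 4 lowest. Pou6f1 had CAG150 cells at day 6 on top, then HM1 cells at day 6, and both lines overlapping at day 4. Pou3f1 was ordered by line and then by day, with HM1 cells at day 4 on top, CAG150 cells at day 6 lowest and all 4 groups apart.

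Across the 12 arrays, Pearson's r was 0.985 between Pou3f4 and Pou4f1 and 0.976 between Pou3f2 and Pou3f3. Other pairs without Pou3f1 lay between 0.761 and 0.892, and Pou3f1 had an r of -0.56 to -0.805 with the other 5. These values describe 12 arrays that share their groups, so they follow the order of the groups.

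The genes whose pattern over the 12 arrays was most like that of a member were chosen by the highest Pearson's r among all genes tested. For Pou3f1 they were Amotl2 (r = 0.985), Mtss1 (0.969) and Fgfbp1 (0.967). Amotl2, which codes for an angiomotin family protein, averaged 328 ± 26.7 in CAG150 cells at day 6, 418 ± 26.4 in CAG150 cells at day 4, 555 ± 43.4 in HM1 cells at day 6 and 941 ± 18.3 in HM1 cells at day 4. Like Pou3f1 it was lowest in CAG150 cells at day 6.

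For Pou3f2 the nearest were Lin7a (0.99), Cyp26b1 (0.988), an enzyme that breaks down retinoic acid, and Scg3 (0.986), a secretory granule protein. For Pou3f3 they were Nrarp (0.997), a Notch target that damps the pathway, Fabp7 (0.995), a lipid carrier of radial glia, and Scg3 (0.994). Nrarp averaged 1574 ± 102 in CAG150 cells at day 6, 522 ± 52.2 in CAG150 cells at day 4, 1168 ± 29.4 in HM1 cells at day 6 and 342 ± 33.7 in HM1 cells at day 4. Scg3 averaged 705 ± 43.8, 182 ± 14.1, 528 ± 15.4 and 91.3 ± 7.62 in the same groups. It shared the order by day with both factors. The order by line within each day it shared with Pou3f3, since the lines overlapped for Pou3f2 at day 6.

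For Pou3f4 the nearest were Epha3 (0.991), an ephrin receptor of axon guidance, Pou4f1 itself (0.985) and Slc17a6 (0.983), the vesicular glutamate transporter of excitatory neurons. For Pou4f1 they were Epha3, Neurog2 and Pou3f4 (each 0.985). Epha3 averaged 532 ± 69.4 in CAG150 cells at day 6, 85.7 ± 8.61 in CAG150 cells at day 4, 125 ± 19.0 in HM1 cells at day 6 and 56.3 ± 1.41 in HM1 cells at day 4. Slc17a6 averaged 172 ± 36.4, 14.8 ± 5.09, 22.5 ± 11.3 and 3.23 ± 3.07 in the same groups. Both stood highest in CAG150 cells at day 6 by a wide margin. For Pou6f1 the nearest were Xpr1 (0.988), a phosphate exporter, Vps13c (0.981) and Maged2 (0.979).

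Partners and neural targets of the class III factors were followed as a list of 15 genes, 14 of which were tested. In CAG150 cells 12 rose with time and 1 fell, and in HM1 cells 10 rose and 3 fell, with median log2 differences of 0.79 and 0.61. Between the lines 3 were higher and 1 lower at day 6, and 4 were higher and 0 lower at day 4, with medians of 0.20 and 0.17. Of all genes tested, 10.1% passed as higher and 11.2% as lower at day 6, and 7.87% and 7.92% at day 4. The median over all genes was 0.0 or 0.01 in these comparisons. The day 6 count takes in Sox11 (0.46, adjusted p = 0.048, limma), whose call was unstable. It was lost with no filter (0.46, adjusted p = 0.08) and without HM1 day 6 replicate 3 (0.45, adjusted p = 0.14), among other fits.

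Zic1, a zinc finger factor of the dorsal neural tube, had the largest line difference of that list at day 6. It averaged 1204 ± 202 in CAG150 cells at day 6, 568 ± 88.3 in CAG150 cells at day 4, 181 ± 15.8 in HM1 cells at day 6 and 278 ± 25.4 in HM1 cells at day 4. It was 6.15-fold higher in CAG150 cells at day 6 (2.62 ± 0.13, adjusted p = 6.2e-08) and 1.98-fold higher at day 4 (0.99, adjusted p = 0.00033, limma). Its change with time differed between the lines by 1.64 ± 0.19 (adjusted p = 0.0005), since it rose in CAG150 cells (1.06) and fell in HM1 cells (-0.58, adjusted p = 0.0047).

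Dll1, the Notch ligand of newborn neurons, averaged 871 ± 75.9 in CAG150 cells at day 6, 449 ± 59.1 in CAG150 cells at day 4, 632 ± 41.7 in HM1 cells at day 6 and 332 ± 12.7 in HM1 cells at day 4. It was higher in CAG150 cells at day 6 (0.45 ± 0.10, adjusted p = 0.0079) and at day 4 (0.41 ± 0.10, adjusted p = 0.018, limma). The day 4 call was lost without HM1 day 4 replicate 3 (0.38, adjusted p = 0.059) or CAG150 day 4 replicate 3 (0.31, adjusted p = 0.069). It was also lost with arrays centred on their medians (0.35, adjusted p = 0.073). Fabp7, a known target of class III factors, averaged 6688 ± 530.5, 2168 ± 97.1, 5413 ± 216 and 1369 ± 195 in the same groups, and it was higher in CAG150 cells at day 4 (0.67 ± 0.11, adjusted p = 0.0011). Nes, whose neural enhancer binds class III factors with Sox proteins, averaged 332 ± 19.4, 124 ± 12.7, 421 ± 54.2 and 168 ± 35.6, and it rose with time in CAG150 cells (1.32, adjusted p = 7.7e-06) and HM1 cells (1.26, adjusted p = 1.5e-05). By their means Dll1 and Fabp7 thus stood highest in CAG150 cells at day 6, and Nes in HM1 cells at day 6. The day 6 line differences of Fabp7 (0.30, adjusted p = 0.062) and Nes (-0.32, adjusted p = 0.12, limma) did not pass.

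Hes5 had its highest mean in CAG150 cells at day 6 and Pax6 in HM1 cells at day 6. The Hes5 line difference at day 6 did not pass (0.39, adjusted p = 0.058, limma). Hes5, a repressor downstream of Notch, averaged 3122 ± 439 in CAG150 cells at day 6, 1779 ± 269.6 in CAG150 cells at day 4, 2360.2 ± 168 in HM1 cells at day 6 and 639 ± 91.1 in HM1 cells at day 4. It was 2.74-fold higher in CAG150 cells at day 4 (1.45 ± 0.14, adjusted p = 1.7e-05), and its rise was smaller in CAG150 cells (-1.06 ± 0.19, adjusted p = 0.0094, limma). Pax6, a homeodomain factor of neural progenitors, averaged 781 ± 61.0, 328 ± 30.2, 1038 ± 37.3 and 283 ± 8.65 in the same groups. It was the gene of the list that was lower in CAG150 cells at day 6 (-0.40 ± 0.09, adjusted p = 0.0068).

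Genes around the class IV factors in sensory and retinal neurons made a list of 24, of which 20 had a named probe set and 15 were tested. In CAG150 cells 11 rose with time and 1 fell (median 1.02), and in HM1 cells 7 rose and 2 fell (median 0.34). At day 6, 7 were higher in CAG150 cells and 2 lower, and at day 4, 5 were higher and 2 lower, with medians of 0.38 and 0.27. Of all genes tested, 21.4% passed in either direction at day 6 and 15.8% at day 4. The change with time differed between the lines for 9 of the 15, of which 5 were more positive and 4 more negative in CAG150 cells. Over all genes tested, 1.58% were more positive and 2.03% more negative, 3.61% in all. Some of the 9 calls were unstable. That of Eomes was lost with no filter (1.05, adjusted p = 0.069), among other settings, and that of Lmx1b with averaged probe sets (0.59, adjusted p = 0.059).

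Neurog2, a proneural factor that precedes Pou4f1 in early sensory neurons, averaged 299 ± 62.6 in CAG150 cells at day 6, 42.0 ± 9.52 in CAG150 cells at day 4, 76.6 ± 7.43 in HM1 cells at day 6 and 17.2 ± 2.34 in HM1 cells at day 4. It was 3.36-fold higher in CAG150 cells at day 6 (1.75 ± 0.15, adjusted p = 5e-06), and its rise was larger there (0.96 ± 0.21, adjusted p = 0.026, limma). Lhx9, a LIM homeodomain factor of dorsal interneurons, averaged 117 ± 28.3, 19.6 ± 0.973, 18.8 ± 4.1 and 11.6 ± 3.92 in the same groups, and it was 3.79-fold higher in CAG150 cells at day 6 (1.92 ± 0.15, adjusted p = 1.8e-06). Tlx3, a homeobox factor of sensory and dorsal horn neurons, averaged 101 ± 17.0, 21.3 ± 6.93, 39.9 ± 8.36 and 16 ± 10.9, and it was higher in CAG150 cells at day 6 (1.06 ± 0.23, adjusted p = 0.006), which was lost with a pseudocount of 1 (1.32, adjusted p = 0.094). These 3 genes stood highest in CAG150 cells at day 6, as Pou4f1 did.

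Isl1 and Neurog1 went the other way at day 6. Isl1, the LIM homeodomain factor that works beside Pou4f1 in sensory neurons and also specifies motor neurons, averaged 106 ± 14.5 in CAG150 cells at day 6, 67.5 ± 15.3 in CAG150 cells at day 4, 351 ± 16 in HM1 cells at day 6 and 68.2 ± 3.66 in HM1 cells at day 4. It was 3.03-fold lower in CAG150 cells at day 6 (-1.60 ± 0.13, adjusted p = 2.8e-06, limma), with a smaller rise (-1.57 ± 0.18, adjusted p = 0.00045). Neurog1, the other proneural factor of sensory ganglia, averaged 251 ± 37.4, 74.3 ± 13.9, 477 ± 71.3 and 27.7 ± 7.12 in the same groups. It was lower in CAG150 cells at day 6 (-0.88 ± 0.16, adjusted p = 0.002) and higher at day 4 (1.05, adjusted p = 0.00085).

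Markers of neural crest and Schwann cells numbered 6, of which 4 had a named probe set and 3 were tested. Of the 3, 1 was higher and 0 lower in CAG150 cells at day 6 and 0 passed at day 4, and the median of their interactions was -0.16. The sum of the list was 306 to 368 in CAG150 cells at day 6 and 52.0 to 80.9 in CAG150 cells at day 4. It was 160.0 to 193 in HM1 cells at day 6 and 57.8 to 73.8 in HM1 cells at day 4. Tfap2a, a factor of neural crest and of dorsal ectoderm, averaged 211 ± 30.6 in CAG150 cells at day 6, 15.4 ± 6.71 in CAG150 cells at day 4, 35.4 ± 4.39 in HM1 cells at day 6 and 13.5 ± 4.41 in HM1 cells at day 4. It was 4.39-fold higher in CAG150 cells at day 6 (2.13 ± 0.16, adjusted p = 1.5e-06, limma), and its rise was larger there (2.05 ± 0.22, adjusted p = 0.00037). The other members did not follow it, with Ngfr, a neurotrophin receptor, at 101 in CAG150 cells and 115 in HM1 cells at day 6, Foxd3 at 6.14 in CAG150 cells and 12.7 in HM1 cells, and a difference of 0.17 for Sox10 that did not pass. The part of such cells in the values of the POU genes was not tested.

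**Figure D4:**
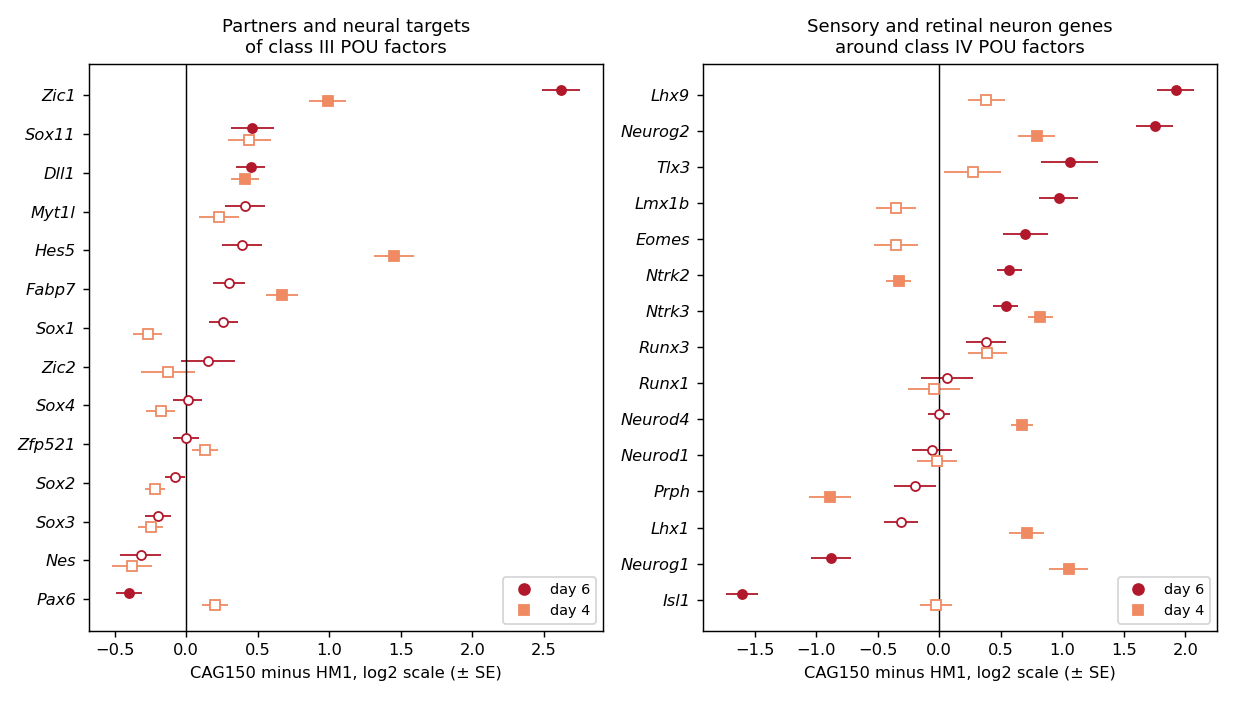
CAG150 minus HM1 cells on the log2 scale, with SE bars, at day 6 (circles) and day 4 (squares) for each tested gene of 2 lists, filled where the adjusted p was under 0.05. At day 6 Zic1 (2.62) and Lhx9 (1.92) are the highest of their lists, and Pax6 (-0.40) and Isl1 (-1.60) the lowest.

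Of 8 other POU genes, 6 had a named probe set and 3 were tested: Pou5f1, Pou2f2 and Pou5f2. Pou2f2, a class II factor best known in B cells, averaged 24.0 ± 5.47 in CAG150 cells at day 6, 7.16 ± 3.59 in CAG150 cells at day 4, 15.7 ± 4.74 in HM1 cells at day 6 and 7.06 ± 2.29 in HM1 cells at day 4. It rose with time in CAG150 cells (0.79 ± 0.15, adjusted p = 0.00077) and in HM1 cells (0.45 ± 0.15, adjusted p = 0.027, limma), where the call was lost without HM1 day 4 replicate 2 (0.47, adjusted p = 0.054) or replicate 3 (0.37, adjusted p = 0.098). The HM1 call on Pou2f2 was also lost with arrays centred on their medians (0.35, adjusted p = 0.085). It was lost with a pseudocount of 64 (0.16, adjusted p = 0.091) and with an eBayes trend (0.45, adjusted p = 0.061) too. Pou5f2 passed in no comparison. Of the snRNA activating complex, with which Pou2f1 works, 4 of 5 subunits were tested, and 1, Snapc2, was higher in CAG150 cells at day 6 (0.45, adjusted p = 0.013), with 0 called at day 4. That call was lost without CAG150 day 6 replicate 3 (0.38, adjusted p = 0.059) or HM1 day 6 replicate 2 (0.40, adjusted p = 0.05).

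The measured POU genes lie on chromosomes 1, 4, 14, 15 and X (GRCm38.p6). Pou3f1 spans 124657646 to 124660655 and Pou3f2 22482095 to 22488366 on chromosome 4. Pou3f3 spans 42695768 to 42700210 on chromosome 1, Pou3f4 110814379 to 110819108 on chromosome X, Pou4f1 104461675 to 104468118 on chromosome 14 and Pou6f1 100575318 to 100600061 on chromosome 15. On chromosomes 8 and 11 the genes as a whole were shifted between the lines, with median log2 differences of 0.24 and 0.228 at day 6 and 0.196 and 0.172 at day 4. No measured member lies there, and the medians of the members' own chromosomes were -0.061 to -0.013 at day 6 and -0.043 to -0.003 at day 4. Of the list genes named above, Tubb3, Snapc2 and Sox1 lie on chromosome 8 and Mapt, Rbfox3, Tlx3 and Ngfr on chromosome 11, and the part of that shift in their values was not tested.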

How the data were processed

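The files held 1 table of 12 arrays by 45101 probe sets. The authors deposited linear intensities, with software not given in the sources used here. By the values themselves, every array had been scaled to a trimmed mean of 150, leaving out 2% of probe sets at each end. Groups follow the titles, since the descriptions put HM1 day 6 samples at the earlier day and number all day 6 samples alike.

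The 64 control probe sets were left out. Of the rest, 34945 had 1 gene symbol, 932 had several and 9160 had none in the annotation used, and only the first were named. Intensities were taken as log2(intensity + 16). The probe set with the highest mean stood for a gene, and those with a mean above the 40th percentile (4.8, or an intensity of 11.9) were tested, which left 12280 genes. A separate fit took 27022 probe sets. A mean per group was fitted over the 12 arrays by limma 3.58.1 (R 4.3.3) with eBayes (8 residual and 4.46 prior degrees of freedom, 4.18 for probe sets), with Benjamini-Hochberg adjustment over all genes or probe sets and a threshold of 0.05. The interaction is the day difference in CAG150 cells minus that in HM1 cells. The number of arrays limits the precision.

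Residuals of samples with the same replicate number correlated at -0.133 to 0.122, so the numbers were not taken to pair samples. The 10 other settings were quantile normalization, median centring, no filter, a limit at the 60th percentile, pseudocounts of 1 and 64, averaged probe sets of a gene, a trend in eBayes, a block for the replicate number and a fit of the groups of each comparison alone, besides leaving out each array and taking off the median of a gene's chromosome. The fitting code was tested on simulated data. Named were the members with all probe sets, of each list up to 5 genes with the largest called differences and further list genes as values, and the 3 genes most correlated with each member. The members and lists were chosen with earlier results of these data known. Promoter windows and positions came from RefSeq tables of GRCm38.p6, and motifs were searched on both strands.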

Additional observations from a re-analysis of the deposited data

Results flagged for a closer look

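For 3 genes the change between day 6 and day 4 differed between the lines by the test of that difference in limma. Pou3f4 rose by 1.86 in CAG150 cells and by 0.70 in HM1 cells on the log2 scale, a difference of 1.16 (adjusted p = 0.0042). For Pou4f1 the rises were 1.77 in CAG150 cells and 0.94 in HM1 cells, a difference of 0.84 (adjusted p = 0.047). For Pou6f1 they were 1.37 in CAG150 cells and 0.67 in HM1 cells, a difference of 0.70 (adjusted p = 0.046). The Pou4f1 call was kept under 4 of 9 other settings and in 3 of 12 fits with an array left out. The Pou6f1 call was kept under 2 of 8 and in 2 of 12. In the fit over probe sets only the brighter one of Pou3f4 passed. All 3 genes rose in both lines, so the differences are ones of size. With 3 arrays in a group, no search for single arrays that stand apart was made.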

How the results depend on the processing

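The members called between the lines and between the days stayed within 1.5 times their number under every other setting and with any 1 array left out, at 4 to 5 of 6 in each line comparison, 5 to 6 between the days in CAG150 cells and 6 in HM1 cells when an array was left out. The interaction was less stable. It called 3 genes, and it called 1 with arrays centred on their medians, no filter or a pseudocount of 1 (Pou3f4), and 1 with averaged probe sets (Pou3f1, outside the 3). With an array left out it called 1 to 3, and these were not always among the 3. The replicate block also left 1 gene, Pou3f4. It ended the calls of Pou3f4 at day 4 (adjusted p = 0.054) and of the interaction for Pou4f1 (0.074) and Pou6f1 (0.076), and changed no other member's call. The replicate numbers were not shown to pair the samples.

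The interaction called 443 genes in all, 295 with no filter and 269 to 364 with an array left out. All genes called with an array left out were 1861 to 2649 at day 6, 1366 to 1923 at day 4, 4652 to 5516 between the days in CAG150 cells and 3905 to 4778 in HM1 cells. Probe sets of the members called were then 6 to 7, 5 to 8, 9 to 11 and 12, and 1 to 2 in the interaction. A filter at the 60th percentile, which leaves fewer probe sets to test, called 4 at day 6, 5 between the days in CAG150 cells, 7 in HM1 cells and 2 in the interaction. The interaction called 0 probe sets with a pseudocount of 1, 5 with 64 and 2 with an eBayes trend, against 1 in the fit used throughout. The line difference of Pou6f1 at day 4 was 0.06 with the mean of its probe sets, against -0.10, and passed in neither. The causes were not tested.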
